A study of Mus musculus with 7 samples.

Results

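Vip, Cck, Crh, Tac2 and Tac1 encode the precursors of 5 neuropeptides of cortical neurons, and their levels, their cell types and their detection in the same cells are described here in 7 single-cell RNA sequencing libraries of mouse cortex. The 5 genes were taken by name from the 19614 genes listed across the libraries, and each of them had at least 1 UMI (unique molecular identifier, which marks 1 captured mRNA molecule) in every library. The libraries come from B6129SF1/J mice at postnatal day 30, kept at 12 h of light and 12 h of dark. DTA mice have the genotype Opn4-Cre/+; Brn3b-zDTA/+. Cells that use both the melanopsin gene Opn4 and Brn3b make a diphtheria toxin fragment. The design removes those intrinsically photosensitive retinal ganglion cells (ipRGCs, the melanopsin neurons of the retina) that use Brn3b. CTRL mice (Opn4-Cre/+; Brn3b-+/+) carry the same Cre allele without the toxin allele and keep these cells. The ventromedial prefrontal cortex (PFC) was measured in 3 DTA and 2 CTRL libraries, and the motor cortex (MC) in 1 DTA and 1 CTRL library. The targeted cells lie in the retina, so the ablation itself could not be checked in cortical tissue.

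Neuropeptides are cut from larger precursors inside dense-core vesicles and act on G protein-coupled receptors, usually more slowly and over longer distances than GABA or glutamate. In the cortex, VIP marks interneurons that mainly inhibit other interneurons. CCK is made both by a class of cannabinoid-sensitive basket cells and by many pyramidal neurons. CRH is best known as the hypothalamic starter of the stress hormone axis and is also made by cortical interneurons. Tac2 encodes neurokinin B, and Tac1 encodes substance P and neurokinin A, which are tachykinins that bind related receptors.

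The 5 genes lie on 4 mouse chromosomes. In the assembly GRCm38.p6, Vip spans chr10:5639193-5647617, Tac2 chr10:127724478-127731768, Cck chr9:121489824-121495694, Crh chr3:19693401-19695396 and Tac1 chr6:7555061-7562978. The promoters of Vip, Cck and Tac1 are known from other work to answer to cAMP, and the 250 bases before the start of each gene in the RefSeq promoter table of that build are shown because Vip and Tac2 were found in the same cells and Tac1 in others. Capitals mark TGACG or CGTCA, the core of the cAMP response element on either strand, which overlap each other within its full form TGACGTCA. The windows are chr10:5638968-5639217 on the plus strand for Vip, chr10:127724228-127724477 on the plus strand for Tac2, chr9:121495695-121495944 on the minus strand for Cck and chr6:7554811-7555060 on the plus strand for Tac1, all printed 5′ to 3′ along the gene. The start that the promoter table uses for Vip lies downstream of the gene start given above, so its window runs into the gene as annotated here.
Vip: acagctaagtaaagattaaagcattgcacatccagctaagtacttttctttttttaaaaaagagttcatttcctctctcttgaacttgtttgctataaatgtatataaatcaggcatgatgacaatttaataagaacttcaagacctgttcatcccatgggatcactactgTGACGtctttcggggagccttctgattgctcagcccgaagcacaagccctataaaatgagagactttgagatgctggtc
Tac2: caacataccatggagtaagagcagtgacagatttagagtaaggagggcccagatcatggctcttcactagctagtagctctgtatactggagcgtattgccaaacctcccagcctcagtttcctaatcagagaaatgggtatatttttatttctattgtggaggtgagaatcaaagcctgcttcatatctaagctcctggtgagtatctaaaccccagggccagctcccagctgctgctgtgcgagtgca
Cck: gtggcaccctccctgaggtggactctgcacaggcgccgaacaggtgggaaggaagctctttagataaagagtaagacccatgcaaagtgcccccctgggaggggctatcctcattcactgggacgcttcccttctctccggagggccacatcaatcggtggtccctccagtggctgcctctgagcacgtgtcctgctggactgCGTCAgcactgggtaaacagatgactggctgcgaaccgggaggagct
Tac1: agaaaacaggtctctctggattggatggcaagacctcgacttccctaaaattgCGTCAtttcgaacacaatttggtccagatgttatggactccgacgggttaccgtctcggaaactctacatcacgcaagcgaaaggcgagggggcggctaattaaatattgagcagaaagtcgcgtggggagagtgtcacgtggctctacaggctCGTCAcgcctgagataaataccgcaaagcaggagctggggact
The motif stood once in the Vip window, beginning 79 bases before the start used by the table, once in the Cck window at 47 bases, and at 43 and 197 bases in the Tac1 window. These letters were not found in the Tac2 window. Of 32851 promoter windows of the same length, 17.8% held the motif, so a match is common and is given as a description. Crh is named without a promoter sequence.

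The deposited data hold 32985 cells, between 1936 and 9879 per library, with 6180059 to 30972905 UMIs per library. Between 7 and 92 cell barcodes were shared by any pair of libraries. All cells were clustered without the 5 peptide genes. Then 1064 cells scored as doublets and 80 cells of sub-clusters with markers of several classes were removed. This left 2803 inhibitory and 12951 excitatory neurons, called so because their clusters carried the markers of these classes. The median depth of inhibitory neurons was 7891 to 9351 UMIs in PFC DTA replicate 2, PFC CTRL replicate 1 and the MC DTA library, and 2250 to 4431 UMIs in the other 4. This split by depth crosses the genotypes in the PFC but coincides with them in the MC. The labels do not say whether the libraries of a group came from separate animals, so p-values measure the spread between libraries.

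Vip, Crh, Tac2 and Tac1 were interneuron genes, and Cck belonged to both neuron classes. Inhibitory neurons held 92.8% to 98.7% of all Vip UMIs of a library, 88.7% to 97.5% of the Crh UMIs, 91.8% to 98.8% of the Tac2 UMIs and 77.3% to 94.5% of the Tac1 UMIs. Excitatory neurons held 82.3% to 90.6% of the Cck UMIs. Inhibitory neurons averaged 2498 ± 716 CPM of Vip, where CPM is the UMIs of a gene scaled to a fixed total of UMIs (SD, n = 7 libraries, as for the other levels of classes), 2112 ± 625 CPM of Cck, 258 ± 78.6 CPM of Crh, 458 ± 98.5 CPM of Tac2 and 331 ± 105 CPM of Tac1. These levels are counts from the 3′ ends of transcripts and are compared between cell groups, not between genes.

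Low levels outside these classes were set against microglia, since droplets pick up free RNA from lysed cells. Vip averaged 8.85 ± 5.92 CPM in excitatory neurons and 9.96 ± 5.26 CPM in microglia, brain macrophages that should lack it. Among cells thinned to 1000 UMIs, 15.7% to 27.6% of inhibitory neurons had a Vip UMI, against 0.53% to 1.76% of excitatory neurons and 0.56% to 1.83% of microglia. Crh averaged 1.79 CPM in excitatory neurons and 2.77 CPM in microglia, Tac2 1.96 and 2.05 CPM, and Tac1 3.21 and 4.63 CPM. For each of these 4 genes the mean in excitatory neurons was below that in microglia. The part of free RNA in these levels was not tested. Tac1 averaged 30.2 ± 17.8 CPM in oligodendrocyte precursors, second to inhibitory neurons. These libraries ran from 10.3 to 58.8 CPM and overlapped those of microglia, at 0 to 17.7 CPM. Cck was more widespread: at 1000 UMIs a Cck UMI was found in 64.1% to 82.6% of excitatory neurons and 35.5% to 63.5% of inhibitory neurons, against 10.1% to 52.1% of microglia. In every library the share was lower in microglia than in inhibitory neurons, but a part of the low Cck level of any cell type can be free RNA. That part was not tested.

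Neuron subclasses were named from markers other than the 5 peptides. They are the Calb2/Htr3a, Cnr1/Sncg, Lamp5/Ndnf, Sst and Pvalb interneurons and 6 layer classes of excitatory neurons. The interneuron subclasses took in all 2803 inhibitory neurons left after the removals above, and the layer classes 9255 of the 12951 excitatory neurons. Levels across subclasses are descriptions, because the clusters were built from the same cells. The Pvalb interneurons take in a shallow sub-cluster of 73 cells, at 0.222 of the median depth of inhibitory neurons in their library. Its leading genes include Pvalb and Hbb-bs, a red blood cell marker. It averaged 1113 CPM of Vip (0 to 3340 CPM in 3 libraries with at least 10 cells), against 19.4 CPM in the largest Pvalb sub-cluster. Calb2 and Htr3a are known as markers of the interneurons that make VIP, and Cnr1, the cannabinoid receptor gene, of CCK basket cells.

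**Figure D1:**
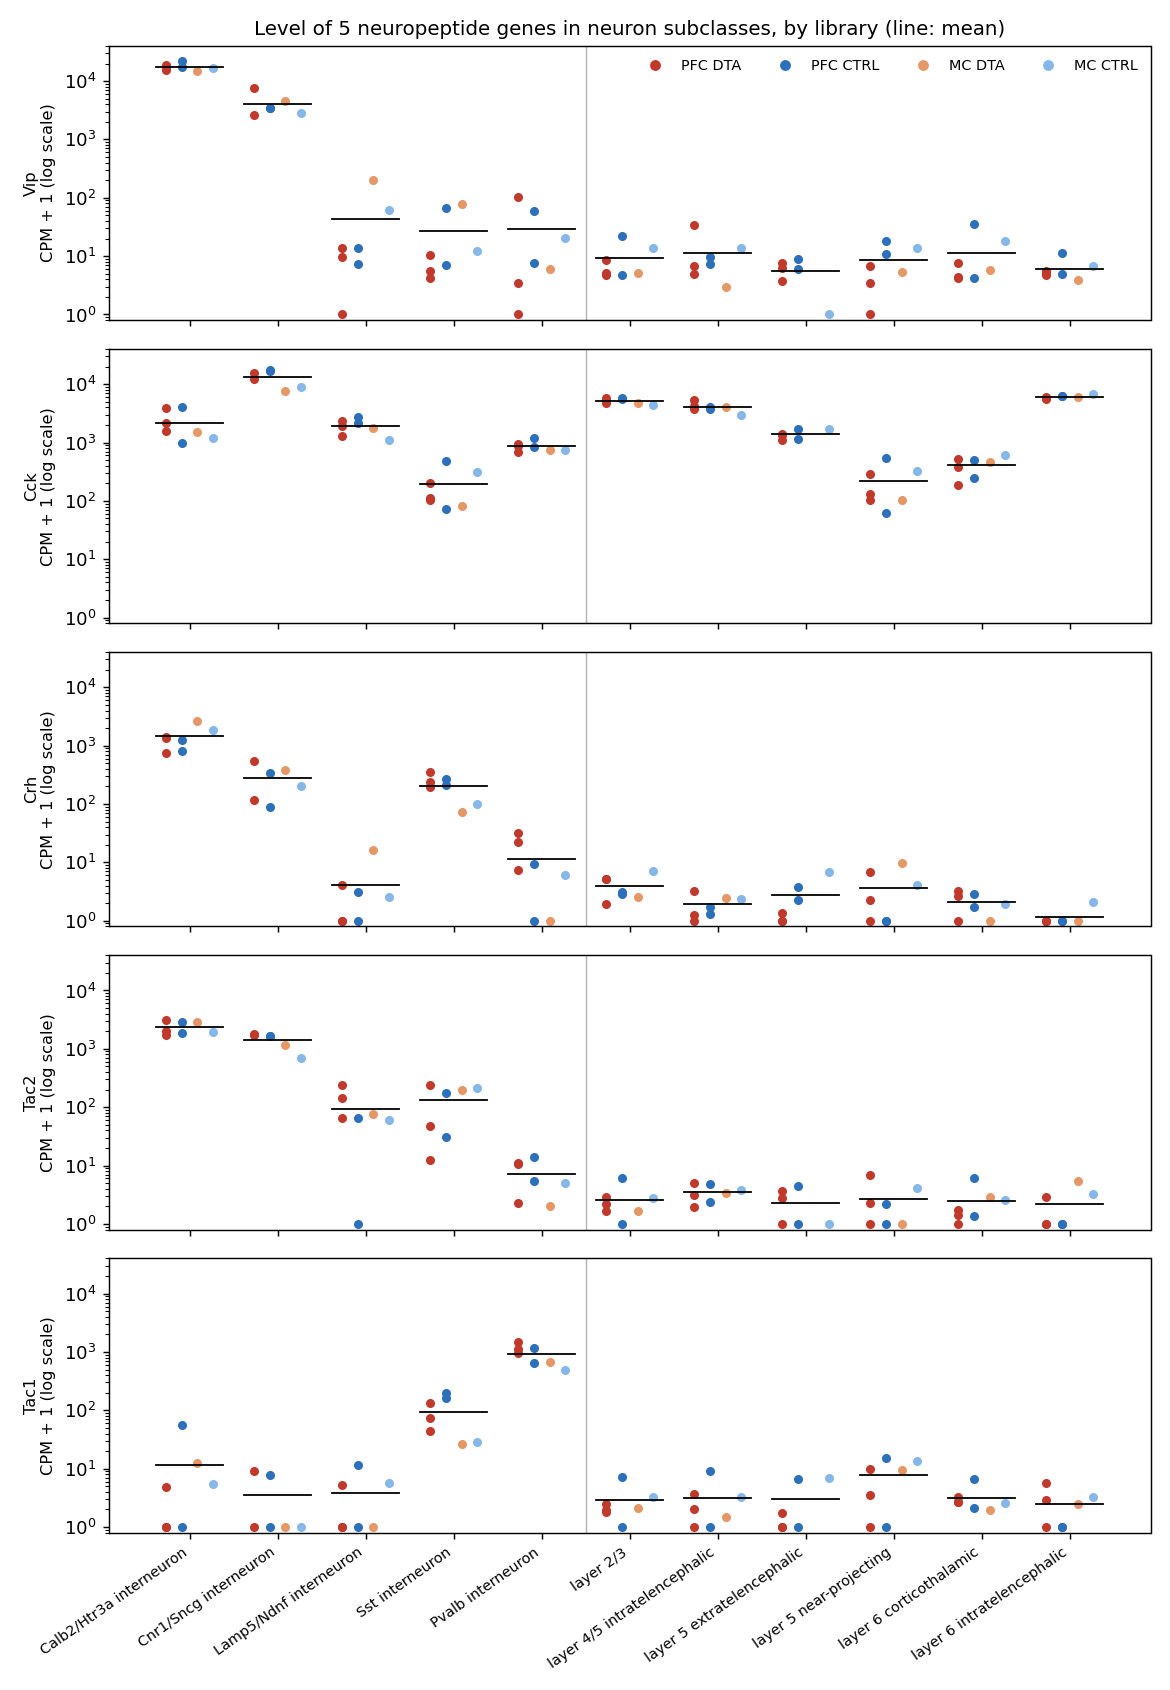
Level of each peptide gene (CPM + 1, log axis) in 5 interneuron and 6 excitatory subclasses; each point is a library with at least 10 cells and lines are means. Vip and Crh are highest in Calb2/Htr3a interneurons (17586 and 1442 CPM), Cck in Cnr1/Sncg interneurons (13303 CPM) and Tac1 in Pvalb interneurons (936 CPM).

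Vip was concentrated in Calb2/Htr3a interneurons, with 17689.6, 15201 and 18563 CPM in the 3 PFC DTA libraries, 17653 and 22274 CPM in the PFC CTRL libraries, 15040.4 CPM in MC DTA and 16682 CPM in MC CTRL. The libraries of both genotypes and areas overlapped. Cnr1/Sncg interneurons came next with a mean of 4069.9 ± 1876 CPM (n = 6 libraries with at least 10 cells), from 2635 CPM in PFC DTA replicate 2 to 7650.5 CPM in PFC DTA replicate 3, all below the lowest Calb2/Htr3a library. The other 3 interneuron subclasses averaged 25.5 to 42.7 CPM. At 2000 UMIs per cell, 93.4% of Calb2/Htr3a interneurons had a Vip UMI (88.9% to 97.4% by library), against 53.2% of Cnr1/Sncg and 1.16% to 1.99% of the rest.

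Cck spanned both classes. Cnr1/Sncg interneurons had 15809 and 12333 CPM in 2 PFC DTA libraries, 17742 and 17107 CPM in the PFC CTRL libraries, 7773 CPM in MC DTA and 9055 CPM in MC CTRL, and the MC libraries were the lowest of the 6. Calb2/Htr3a and Lamp5/Ndnf interneurons, with means of 2204 ± 1286 and 1901 ± 570 CPM, overlapped each other. Pvalb interneurons averaged 858 ± 170 CPM and Sst interneurons 195 ± 154 CPM. Among excitatory neurons Cck followed the projection class: intratelencephalic cells, which project within the cortex and striatum, had 6095 ± 371 CPM in layer 6 and 4069 ± 717 CPM in layers 4/5, and layer 2/3 cells had 5217 ± 594 CPM, overlapping both. The classes that leave the cortex were lower, with 1408 ± 264 CPM in layer 5 extratelencephalic (n = 6) and 413 ± 153 CPM in layer 6 corticothalamic cells, and near-projecting cells of layer 5 had 221 ± 171 CPM. The corticothalamic and near-projecting means lie within the 194 to 831 CPM that classes other than neurons averaged. At 2000 UMIs, 98.4% to 100% of the layer 2/3 and intratelencephalic cells had a Cck UMI, against 33.1% of near-projecting cells.

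Crh was highest in Calb2/Htr3a interneurons, at 746, 1410.0 and 1329.95 CPM in PFC DTA, 1258 and 822 CPM in PFC CTRL, 2666 CPM in MC DTA and 1860.1 CPM in MC CTRL. Both MC libraries stood above all 5 PFC libraries. Cnr1/Sncg interneurons (275 ± 172 CPM, n = 6) and Sst interneurons (203 ± 95.2 CPM) overlapped each other, and Lamp5/Ndnf and Pvalb interneurons averaged 3.17 and 10.2 CPM. Within the Sst interneurons Crh was uneven: a sub-cluster led by Th, the gene of tyrosine hydroxylase, averaged 638 ± 281 CPM (n = 5 libraries with at least 10 cells), against 44.7 ± 7.66 and 28.9 ± 47.0 CPM in the other Sst sub-clusters.

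Tac2 was shared between Calb2/Htr3a interneurons, with 2331 ± 582 CPM, and Cnr1/Sncg interneurons, with 1441 ± 433 CPM (n = 6), and the ranges of the subclasses overlapped slightly. In Calb2/Htr3a interneurons the libraries held 1708, 3094 and 1993 CPM in PFC DTA, 1866 and 2878 CPM in PFC CTRL, 2849 CPM in MC DTA and 1928 CPM in MC CTRL, with no order by group. Sst interneurons averaged 131 ± 97.3 CPM, with the highest level in the Th sub-cluster (376 ± 323 CPM, n = 5, and 0 CPM in PFC DTA replicate 3), and Lamp5/Ndnf interneurons 92.7 ± 78.0 CPM. The Th sub-cluster mean leaves out PFC DTA replicate 1 (133 CPM in 9 cells) and MC DTA (1361 CPM in 7 cells).

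Tac1 belonged to Pvalb interneurons, the fast-spiking cells of the cortex. They held 1494, 966 and 1101 CPM in PFC DTA, 657 and 1166 CPM in PFC CTRL, 672 CPM in MC DTA and 498 CPM in MC CTRL, and the 3 lowest libraries were PFC CTRL replicate 1 and both MC libraries. Sst interneurons followed with 94.2 ± 69.1 CPM, and the remaining interneuron subclasses averaged 2.48 to 10.7 CPM. A Tac1 UMI was found in 57.8% of Pvalb interneurons at 2000 UMIs (43.0% to 68.8% by library), against 6.25% of Sst interneurons.

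Detection in the same cells was measured per library as the share of cells with the second peptide among cells with the first, minus that share among cells without it, after each cell was thinned to 2000 UMIs. Shallower cells were left out, which was 811 of 2803 inhibitory neurons. In inhibitory neurons Vip, Crh and Tac2 formed a group detected together, and Tac1 was detected apart from them. All 7 libraries showed a positive difference for Vip and Tac2 (47.9 ± 8.49 percentage points, SD), Crh and Tac2 (43.7 ± 13.7 points) and Vip and Crh (43.4 ± 12.5 points). All 7 libraries showed a negative one for Vip and Tac1 (-17.9 ± 4.12 points), Crh and Tac1 (-18.9 ± 2.94 points) and Tac2 and Tac1 (-19.2 ± 3.97 points). Each of these 6 pairs had an adjusted p of 0.0391 by an exact two-sided sign-flip permutation test over the 7 libraries, adjusted over 20 pairs. The smallest unadjusted p that 7 libraries can give is 0.0156, and the adjusted p depends on how many of the 20 pairs reach it. Among those that reach it are Crh with Tac1 and Tac2 with Tac1 in excitatory neurons, whose sign is set by an empty overlap (below). Had neither of these reached it, the 6 pairs would not have fallen under 0.05 when adjusted over 20 pairs. The sizes of the differences and their signs by library do not depend on this.

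The counts behind these differences were small for the positive cells. Of the 58 Vip-positive cells of PFC DTA replicate 2, 34 had a Tac2 UMI and 28 a Crh UMI, where independent detection would give 11.1 and 10.9 cells. Of the 52 Vip-positive cells of the MC DTA library, 34 had a Crh UMI, against 9.54 under independence, and of the 63 of the MC CTRL library, 36 had one, against 6.33. In the same 3 libraries 1, 3 and 3 Vip-positive cells had a Tac1 UMI. The difference for Vip and Crh ran from 27.7 points in PFC CTRL replicate 2 to 61.8 points in MC DTA.

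Pairs with Cck had smaller differences. They were 10.8 ± 5.82 points for Cck and Tac1, 8.66 ± 5.23 points for Vip and Cck and 8.30 ± 5.35 points for Cck and Tac2, each positive in 6 of 7 libraries with an adjusted p of 0.0568 by the exact test. The difference for Cck and Crh was -0.12 ± 3.56 points with an adjusted p of 1. Each of the 4 passed under some other depth. At 1000 UMIs Vip and Cck (10.5 points), Cck and Tac2 (11.7 points) and Cck and Crh (3.61 points) passed with an adjusted exact p of 0.0295. Cck and Tac1 did not pass there (5.35 points, adjusted exact p 0.0966) but passed at 3000 UMIs (18.8 points, 0.0402), without thinning (18.4 points, 0.0391) and at 2 or more UMIs without thinning (17.2 points, 0.0290). The direction of the Vip and Cck pair turned without thinning (-3.34 points, adjusted exact p 0.0938) and at 2 or more UMIs (-6.30 points, 0.0762). The Cck and Crh pair, positive at 1000 UMIs, was at -4.63 points without thinning. The part of free Cck RNA in these pairs was not tested.

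**Figure D2:**
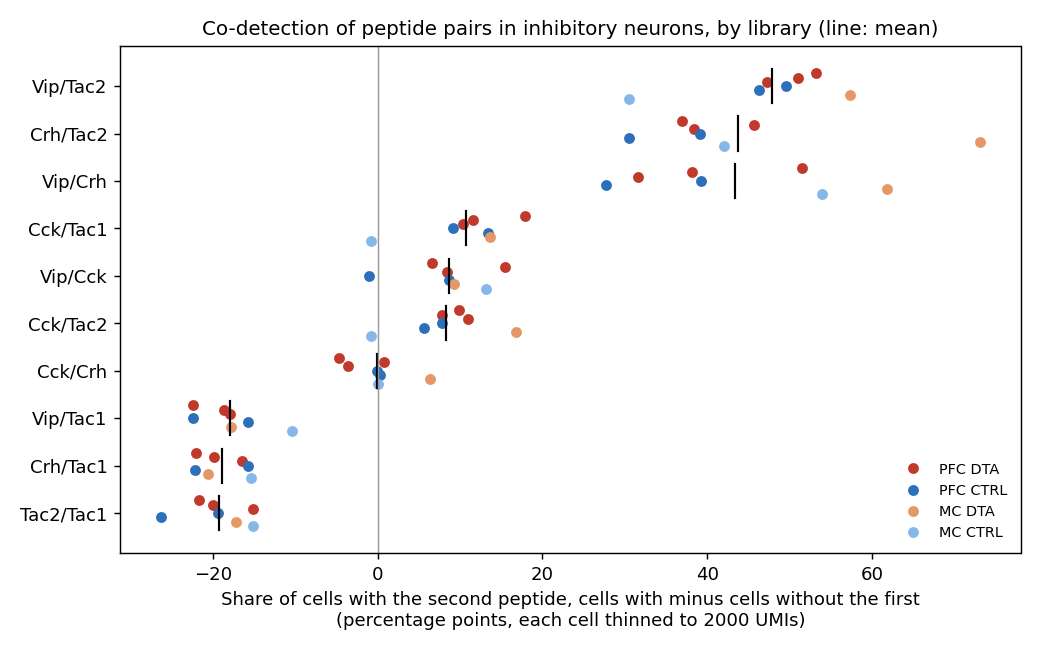
Difference in the share of inhibitory neurons with the second peptide, cells with minus cells without the first (percentage points, cells thinned to 2000 UMIs); points are the 7 libraries and lines are means. The 3 pairs among Vip, Crh and Tac2 lie at 27.7 points or above in every library, and the pairs of Tac1 with these 3 lie below 0 in every library.

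Few excitatory neurons held any pair other than those with Cck. At 2000 UMIs, 9998 excitatory neurons held 5 cells with both Vip and Crh against 0.758 under independence, 4 with Vip and Tac2 against 0.824, and 147 with Vip and Cck against 144. Cck and Tac1 were found together in 65 cells against 65.2 under independence. Crh with Tac1 and Tac2 with Tac1 passed the exact sign-flip permutation test (adjusted p = 0.0391 each), but no cell held both peptides of either pair and fewer than 1 was to be found by independence, so the negative sign is set by the empty overlap. In all, 8 of the 20 pairs passed, counting both of these, and the calls of the inhibitory pairs depend on that count.

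Pairs were also counted inside the subclasses, against the number that independent detection within the subclass would give. Of 264 Calb2/Htr3a interneurons at 2000 UMIs, 143 held both Vip and Crh, and independence within the subclass gives 143.1. Vip and Tac2 were together in 48.5% of the cells, where independence gives 121.6 of the 264. The difference was positive in 6 of 7 libraries. Vip was found in 247 of the 264 cells, so this sign rests on few cells without Vip in each library. Crh and Tac2, in contrast, were together in 98 cells against 75.3, with a positive difference in 7 of 7 libraries, and Cck and Tac2 in 94 cells against 78.3, also in 7 of 7. Cck and Crh were together in 109 cells against 92.1, in 6 of 7 libraries. The 3 peptides Vip, Crh and Tac2 were found in 36.4% of these cells (24.4% to 51.3% by library), and the same 3 with Cck in 29.2%. These values within subclasses were not tested, and each cell was thinned to the same depth. At this depth a Cck UMI was also found in 183 of 534 Sst interneurons, and its share in microglia is given above. The part of free RNA in the pairs with Cck, here and in the other subclasses, was not tested.

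Cnr1/Sncg interneurons held the same pairs in fewer cells. Of 176 cells, 29 held Crh and Tac2 against 16.6 under independence, 32 Vip and Crh against 17.4, and 57 Vip and Tac2 against 37.3. Each had a positive difference in 7 of 7 libraries, but PFC DTA replicate 1 held only 4 cells of this subclass before thinning. The difference for Vip and Tac2 ran from 10 to 100 points by library. In 581 Pvalb interneurons Cck and Tac1 were together in 270 cells against 259.9, with a positive difference in 4 of 7 libraries. In 534 Sst interneurons Crh and Tac2 were together in 19 cells against 7.75, positive in 4 of 7 libraries, and Crh and Tac1 in 2 cells against 6.16, positive in 0 of 7.

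**Figure D3:**
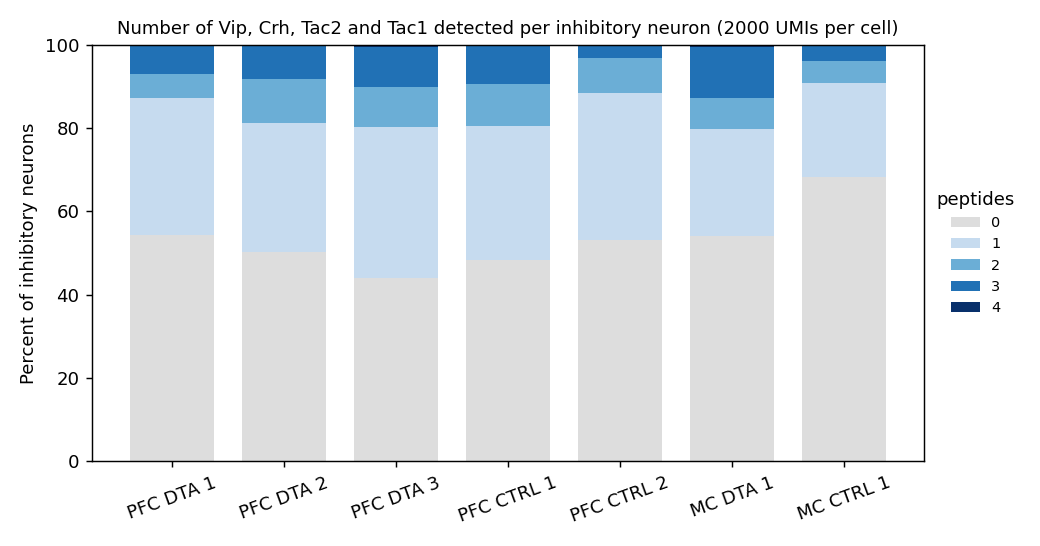
Share of inhibitory neurons (percent, cells thinned to 2000 UMIs) with 0 to 4 of the peptides Vip, Crh, Tac2 and Tac1, 1 bar per library. Between 43.9% and 68.3% of the cells had none of the 4, and cells with 3 of them made up 2.98% (PFC CTRL replicate 2) to 12.4% (MC DTA).

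The number of peptides per cell varied between libraries without an order by genotype in the PFC. Cells with 3 of Vip, Crh, Tac2 and Tac1 were 7.14%, 8.24% and 9.60% of inhibitory neurons in PFC DTA, 9.40% and 2.98% in PFC CTRL, 12.4% in MC DTA and 3.82% in MC CTRL. At most 0.51% held all 4.

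The comparison of DTA with CTRL mice asks whether loss of the ipRGCs that use Brn3b moves the peptides in the PFC. No gene of either neuron class passed the threshold there. Of 10893 genes tested in inhibitory neurons 0% passed (0 genes with edgeR at an adjusted p under 0.05, 0 with DESeq2, 441 at an unadjusted p under 0.05), and of 13933 in excitatory neurons 0% passed (0 with edgeR, 0 with DESeq2, 252 at an unadjusted p under 0.05). Vip in inhibitory neurons had 2827, 1813 and 3649 CPM in DTA libraries, against 2773 and 2800.4 CPM in CTRL libraries, a log2 fold change of 0.03 ± 0.25 (SE). The CTRL values lay inside the DTA range. In a summed class, fewer expressing cells and less RNA per cell cannot be told apart.

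Cck in inhibitory neurons had 1494, 2272 and 2398 CPM in DTA libraries, against 2598 and 3032 CPM in CTRL libraries. The groups did not overlap, but the difference did not pass (log2 fold change -0.41 ± 0.22, edgeR adjusted p 0.999). In excitatory neurons Cck had 3850.2, 3529 and 3981 CPM in DTA, against 3159 and 4080.0 CPM in CTRL, with a log2 fold change of 0.12 ± 0.21, and the DTA values lay inside the CTRL range. Crh in inhibitory neurons had 201, 245 and 379 CPM in DTA, against 297 and 166 CPM in CTRL (0.33 ± 0.30). Tac2 had 390.4, 569 and 521 CPM in DTA, against 444 and 543 CPM in CTRL (0.06 ± 0.20). Tac1 had 482, 339.9 and 319 CPM in DTA, against 268 and 451 CPM in CTRL (0.10 ± 0.23). The groups overlapped for these 3 peptides, and none passed.

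**Figure D4:**
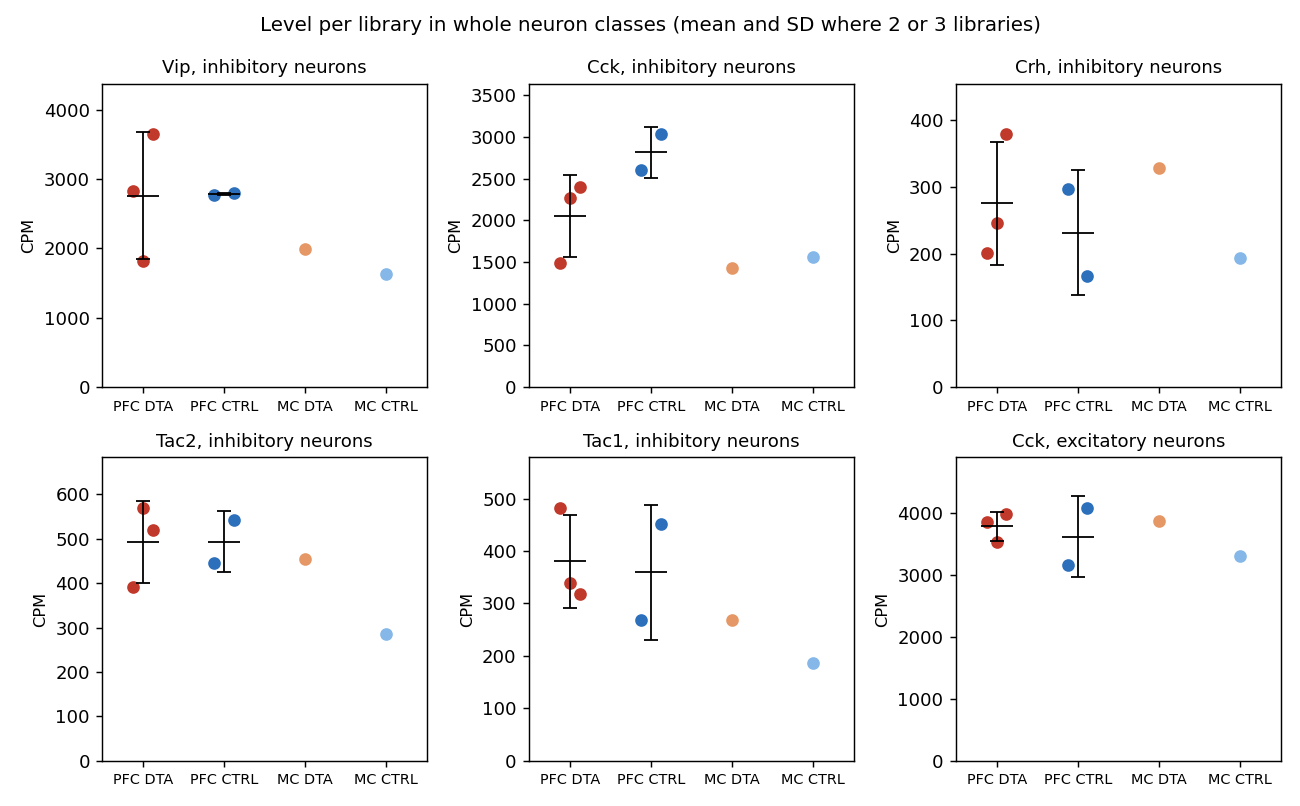
Level per library (CPM, axes from 0) of the 5 peptides in inhibitory neurons and of Cck in excitatory neurons; points are libraries, bars the mean and SD of the PFC groups. DTA and CTRL overlap in the PFC in every panel but Cck in inhibitory neurons (1494 to 2398 CPM in DTA, 2598 and 3032 CPM in CTRL).

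Shares of positive cells are given as values, because their test could not reach the threshold with these libraries. At 2000 UMIs, Vip was detected in 22.7% ± 5.57 of inhibitory neurons in DTA and 20.8% ± 10.4 in CTRL (SD, n = 3 and 2), Crh in 19.4% ± 4.05 and 15.03% ± 6.27, and Tac1 in 16.4% ± 1.99 and 21.1% ± 6.99. Cck was detected in 58.4% ± 7.66 of inhibitory neurons in DTA and 63.0% ± 20.7 in CTRL. The adjusted p was 0.8 for all 10 shares by an exact two-sided permutation test, whose smallest possible p is 0.1 in this design. The differences in detection of pairs between genotypes had adjusted p-values of 0.667 or above by the same exact test.

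Subclasses of the PFC gave 24 tests of peptide genes, of which 0 passed. The shares of all genes that passed were 0.0186% in Calb2/Htr3a and 0.0121% in Sst interneurons, 1 gene each, and 0% in the other 8 subclasses. The smallest p of the 24 belonged to Tac1 in Sst interneurons, with 129.8, 73.1 and 43.7 CPM in DTA libraries, against 196 and 164 CPM in CTRL libraries. The groups did not overlap, and the log2 fold change was -1.37 ± 0.29 with an edgeR adjusted p of 0.14. Without PFC CTRL replicate 2 the adjusted p was 0.0214. Few cells carried these counts: all 14 Tac1 UMIs of PFC DTA replicate 1 came from 1 of 26 Sst cells, and 26 of the 27 in replicate 3 from 1 of 66. In Calb2/Htr3a interneurons Vip averaged 17151 ± 1744 CPM in DTA and 19964 ± 3268 CPM in CTRL (log2 fold change -0.22 ± 0.26), and Crh 1162 ± 362 CPM in DTA and 1040.1 ± 308 CPM in CTRL (0.22 ± 0.29). Cck averaged 2564 ± 1241 CPM in DTA and 2523 ± 2173 CPM in CTRL there (0.05 ± 0.81), and passed only without PFC CTRL replicate 2 (1.42, edgeR adjusted p 0.0111).

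MC and PFC were set against each other in a fit over the 7 libraries that includes genotype, so MC rests on 1 DTA and 1 CTRL library. In whole inhibitory neurons 0 of the 5 peptides passed, where 2.34% of 11529 genes did. Cck averaged 1495 ± 89.5 CPM in MC and 2359 ± 563 CPM in PFC (log2 fold change -0.68 ± 0.19, edgeR adjusted p 0.0648), Tac1 227 ± 58.1 CPM in MC and 372 ± 90.8 CPM in PFC (-0.69 ± 0.20, 0.0864), and Vip 1811 ± 254 CPM in MC and 2772 ± 650 CPM in PFC (-0.61 ± 0.22, 0.165). Tac2 averaged 369 ± 119 CPM in MC and 494 ± 74.1 CPM in PFC (-0.44 ± 0.18, 0.219). The areas overlapped for each. Without the filter on low counts Cck, Tac1 and Vip passed (adjusted p 0.00771, 0.0030 and 0.0242), and Cck also passed with DESeq2 (0.0163). Leaving out 1 library also made calls: Cck passed without PFC DTA replicate 1 (0.0172), Vip without PFC DTA replicate 2 (0.018) and Tac1 without PFC CTRL replicate 1 (0.046). Crh averaged 261 ± 95.1 CPM in MC and 258 ± 83.7 CPM in PFC. In excitatory neurons 5.46% of 14183 genes passed, and Cck was not among them, with 3583 ± 400 CPM in MC and 3720 ± 376 CPM in PFC (-0.04 ± 0.17).

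The makeup of the inhibitory class is set beside these levels and was not tested between the areas. Calb2/Htr3a interneurons, the main source of Vip, were 17.5% and 14.5% of inhibitory neurons in MC DTA and MC CTRL, against 19.4% to 23.0% in the PFC libraries. Lamp5/Ndnf interneurons were 22.9% and 29.4% in MC, against 13.8% to 20.9% in PFC. The part of these shares in the class levels was not tested. The shares of cells with a UMI of any peptide had adjusted p-values of 0.905 by an exact permutation test between the areas. The smallest p of that test is 0.0476, so adjustment over 10 shares leaves a call only if all of them reach it.

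Within subclasses 5 of 26 tests of a peptide between the areas passed, and the share of all genes that passed is given with each subclass. Crh was higher in MC in Calb2/Htr3a interneurons, where 0.209% of genes passed: 2666 and 1860.1 CPM in MC, against 746 to 1410.0 CPM in the 5 PFC libraries. The log2 fold change was 1.06 ± 0.22 (edgeR adjusted p 0.0169), and the areas did not overlap. In the same cells Vip did not pass (15861 ± 1161 CPM in MC, 18276 ± 2562 CPM in PFC, -0.17 ± 0.22), nor did Tac2 (2388 ± 651 CPM in MC, 2308 ± 632 CPM in PFC, 0.09 ± 0.24). The call for Crh was lost without PFC DTA replicate 1 (0.95, adjusted p 0.0575), without the MC DTA library (0.89, adjusted p 0.792) and without the MC CTRL library (1.22, adjusted p 0.191).

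In Sst interneurons, where 1.07% of genes passed, Crh was lower in MC, the opposite direction. It had 70.9 and 99.4 CPM in MC, against 195 to 349 CPM in PFC, a log2 fold change of -1.57 ± 0.24 (edgeR adjusted p 3.99e-04), and the areas did not overlap. Without the MC DTA library the change was -1.22 with an adjusted p of 0.265. The Th sub-cluster that carries most Crh made up 14.3% and 18.7% of Sst interneurons in MC, against 24.8% to 45.8% in PFC. Crh within that sub-cluster was 327 and 332 CPM in MC, against 373 to 1098 CPM in PFC. Its other peptides differed as well: Tac1 was 0 and 6.5 CPM in MC DTA and MC CTRL, against 136 to 389 CPM in PFC. Tac2 was 1361 and 677 CPM in MC DTA and MC CTRL, against 0 to 658 CPM in PFC. These ranges take in 7 cells with 25 Crh UMIs in MC DTA and 9 cells with 14 in PFC DTA replicate 1, fewer than the 10 cells asked for in the sub-cluster means above.

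Tac1 was lower in MC in 2 subclasses. In Pvalb interneurons, where 1.49% of genes passed, it had 672 and 498 CPM in MC, against 657 to 1494 CPM in PFC. The areas overlapped by 1 library, and the log2 fold change of -0.85 ± 0.22 had an edgeR adjusted p of 0.0481. The call was lost without PFC DTA replicate 1 (adjusted p 0.0687), PFC DTA replicate 3 (0.0786), PFC CTRL replicate 2 (0.171), MC DTA (0.948) or MC CTRL (0.376), and also with RLE size factors in place of TMM (-0.85, 0.0509). In Sst interneurons Tac1 had 25.8 and 27.3 CPM in MC, against 43.7 to 196 CPM in PFC (-2.12 ± 0.34, edgeR adjusted p 9.45e-04). The areas did not overlap, but the MC values rest on 16 and 17 UMIs from 2 and 7 cells. In PFC DTA replicates 1 and 3 a single cell held 14 of 14 and 26 of 27 Tac1 UMIs, and without it these libraries had 0 and 1.62 CPM, below the 9.67 and 14.4 CPM of the MC libraries without their own top cell. Without the MC CTRL library the change was -1.39 with an adjusted p of 0.43.

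The largest fold change of any peptide between the areas, Vip in Lamp5/Ndnf interneurons, came from single cells. Vip had 198 and 61.1 CPM in MC, against 0 to 12.9 CPM in PFC (3.56 ± 0.37, edgeR adjusted p 1.02e-08), where 0.467% of genes passed. All 90 Vip UMIs of the MC DTA library lay in 1 of 55 cells, and 32 of the 40 of the MC CTRL library in 1 of 195. Without that 1 cell the levels were 0 and 12.2 CPM, inside the PFC range. Without the MC DTA library the change was 2.51 with an adjusted p of 0.257. The shares of all genes that passed were 8.02% in layer 2/3, 1.45% in layers 4/5, 0.246% in layer 5 near-projecting, 2.4% in layer 6 corticothalamic and 3.57% in layer 6 intratelencephalic cells, and Cck passed in none of these 5. In layer 2/3 Cck had 4526 ± 207 CPM in MC and 5493 ± 429 CPM in PFC, without overlap (-0.28 ± 0.17, adjusted p 0.361), and different clusters held this class in the areas.

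**Figure D5:**
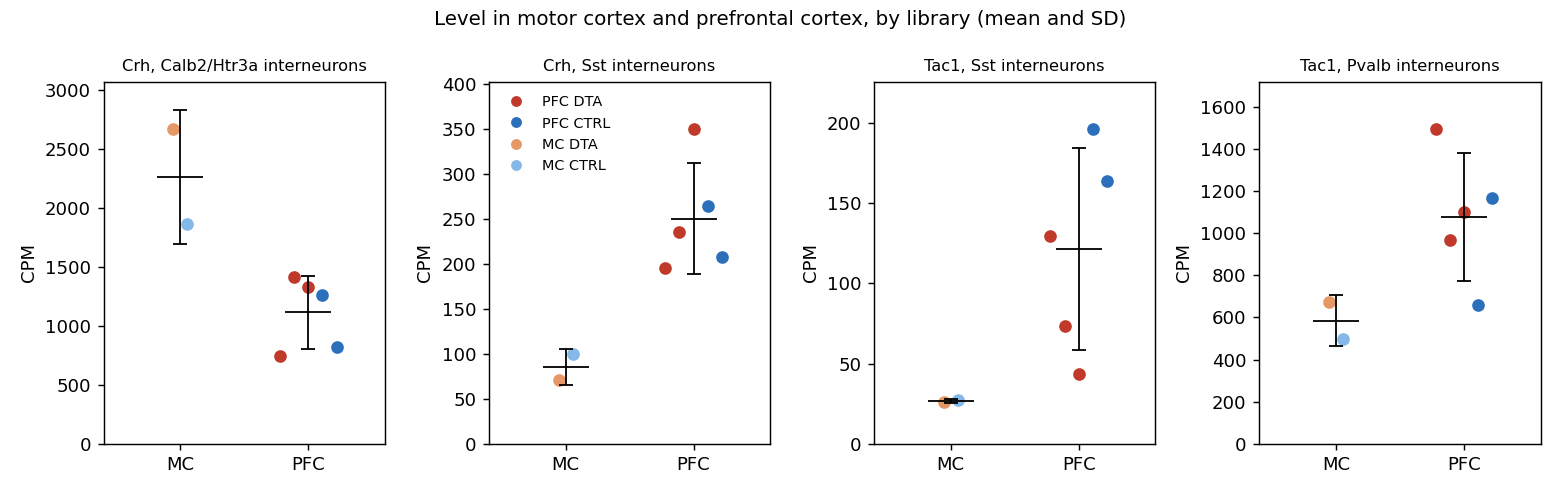
Level per library (CPM, axes from 0) in MC and PFC of Crh in Calb2/Htr3a and Sst interneurons and of Tac1 in Sst and Pvalb interneurons; bars are the mean and SD. Crh lies above all PFC libraries in MC Calb2/Htr3a interneurons (2666 and 1860.1 CPM) and below them in MC Sst interneurons (70.9 and 99.4 CPM).

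The genotypes in the MC are 1 library each, so their differences have no replicate check, and the intervals given cover counting error only. In inhibitory neurons Crh had 328 CPM in DTA and 193 CPM in CTRL, a log2 ratio of 0.76 (95% exact Poisson interval 0.60 to 0.92). Tac2 had 453 CPM in DTA and 285 CPM in CTRL (0.67, 0.54 to 0.80), Tac1 269 and 186 CPM (0.53, 0.36 to 0.69) and Vip 1991 and 1631 CPM (0.29, 0.23 to 0.35). Cck had 1431 CPM in DTA and 1558 CPM in CTRL (-0.12, -0.19 to -0.06). All 5 intervals left out 0, as did those of 19.3% of 12232 genes in this class. In excitatory neurons Cck had 3865 CPM in DTA and 3300 CPM in CTRL (0.23, 0.21 to 0.25), where the intervals of 37.1% of 14616 genes left out 0.

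Inside Calb2/Htr3a interneurons of the MC, Crh and Tac2 kept that direction (log2 ratios of 0.52, 0.34 to 0.70, and 0.56, 0.39 to 0.74), and Vip had 15040.4 CPM in DTA and 16682 CPM in CTRL (-0.15, -0.21 to -0.08). Cck was higher in DTA in these cells (0.32, 0.09 to 0.55) and in Lamp5/Ndnf interneurons (0.73, 0.58 to 0.87). It was lower in DTA in Cnr1/Sncg (-0.22, -0.31 to -0.13) and Sst interneurons (-1.96, -2.43 to -1.50). In Pvalb interneurons the Cck ratio was 0.03 (-0.12 to 0.18). The MC DTA library was deeper, with a median of 9351 UMIs per inhibitory neuron against 3842 in MC CTRL. The summed level of 6 excitatory neuron markers in inhibitory neurons was 135 CPM in MC DTA and 273 CPM in MC CTRL, and that of 6 oligodendrocyte markers 62.8 and 342 CPM. The part of depth and of other cells' RNA in these ratios was not tested. The difference between the genotype effects of the 2 areas was tested with an interaction term, and no peptide passed (smallest edgeR p among inhibitory neurons 0.0969 for Tac2, adjusted p 1.0).

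Receptor genes were measured in the same subclasses. Cckbr, the main CCK receptor of the brain, averaged 39.3 to 68.4 CPM in the excitatory subclasses other than near-projecting cells (6.46 CPM) and 18.4 ± 5.59 CPM in Pvalb interneurons. Crhr1, the principal CRH receptor, was highest in layer 4/5 intratelencephalic cells with 58.6 ± 10.8 CPM, and Vipr1 in the same cells with 27.3 ± 8.62 CPM. Adcyap1r1, the receptor of the related peptide PACAP, averaged 82.3 to 152 CPM in the interneuron subclasses. Crhbp, which binds and sequesters CRH, had 469 ± 147 CPM in Sst and 154 ± 47.6 CPM in Pvalb interneurons and 2.66 ± 3.66 CPM in the Calb2/Htr3a interneurons, which held 49.7% to 84.3% of the Crh UMIs of inhibitory neurons. Tacr1, Tacr2 and Tacr3, the tachykinin receptors, averaged at most 7.23 CPM in any neuron subclass.

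The other genes of the pathway were counted in 3 lists: 11 genes of receptors and the CRH binding protein, 15 of peptide processing and dense-core vesicles, and 15 other peptide precursors. Between DTA and CTRL in the PFC, 0 of the 3, 15 and 10 tested in inhibitory neurons passed, and 0 of the 7, 15 and 13 tested in excitatory neurons. Their median log2 fold changes were -0.06, 0.19 and 0.07 in inhibitory neurons and 0.07, 0.19 and 0.03 in excitatory neurons, beside medians of -0.00 and 0.01 over all genes. The smallest p-values of the processing list belonged to Pcsk2, which encodes prohormone convertase 2, with 111 ± 19.7 CPM in DTA and 76.0 ± 27.5 CPM in CTRL inhibitory neurons (log2 fold change 0.62 ± 0.22), and with 678 ± 218 and 446 ± 24.1 CPM in excitatory neurons (0.65 ± 0.26). Scg3 in inhibitory neurons (0.43 ± 0.21) and Pam, the amidating enzyme, in excitatory neurons (0.63 ± 0.26) came second. Of the receptor list, Cckbr (-0.19 ± 0.40) and Crhbp (0.09 ± 0.21) had the smallest p in inhibitory neurons, and Crhbp (-1.03 ± 0.79) and Crhr1 (0.17 ± 0.19) in excitatory neurons. Of the other precursors these were Pdyn (0.44 ± 0.22) and Grp (-0.88 ± 0.59) in inhibitory neurons and Cort (-1.14 ± 0.24) and Penk (0.63 ± 0.21) in excitatory neurons, and the edgeR adjusted p of each was 0.999 or above.

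Between the areas, some of these genes passed. In inhibitory neurons, where 2.34% of all genes tested passed, 0 of 5 tested receptor genes rose in MC and 1 fell, Crhbp, with 125 ± 9.51 CPM in MC and 223 ± 45.5 CPM in PFC (log2 fold change -0.83 ± 0.19, edgeR adjusted p 0.0177). Of the processing list Cadps rose (423 ± 22.4 CPM in MC, 269 ± 42.6 CPM in PFC) and Cadps2 fell (39.5 ± 8.92 and 78.5 ± 23.1 CPM), both of which prime dense-core vesicles. Of 10 tested precursors, 2 rose and 4 fell. Npy rose (9265 ± 1168 CPM in MC, 3841 ± 1210.2 CPM in PFC), as did Pdyn (log2 fold change 0.70 ± 0.16). Sst fell (2974 ± 155 CPM in MC, 6047 ± 601 CPM in PFC), as did Cort (-0.94 ± 0.19), Cartpt (-1.22 ± 0.19) and Pthlh (-0.79 ± 0.18). The list medians were 0.51 for receptors, -0.13 for processing and -0.86 for precursors, beside 0.00 over all genes. Sst interneurons were 20.4% and 22.6% of the class in MC, against 22.6% to 31.6% in PFC, and the shares of Lamp5/Ndnf interneurons, a known source of Npy, are given above. The part of these shares was not tested.

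In excitatory neurons, where 5.46% of all genes tested passed, 1 of 7 receptor genes fell in MC, Adcyap1r1 (21.5 ± 1.82 CPM in MC, 30.7 ± 2.42 CPM in PFC). Cadps (0.54 ± 0.12) and Cadps2 (1.01 ± 0.15) both rose. Of 13 precursors Cartpt rose (2.44 ± 0.51), and Grp (-2.71 ± 0.17), Cort (-1.53 ± 0.24) and Trh (-1.80 ± 0.35) fell, with a list median of -0.36 beside -0.01 over all genes. Grp had 15.1 ± 1.86 CPM in MC and 98.8 ± 11.8 CPM in PFC, the smallest p of the lists.

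The genes most like each peptide were ranked by Pearson correlation of log2(CPM + 1) over 32 neuron sub-clusters, which share libraries and depth, so r is a description. Tac1 was most like Pvalb (r = 0.94), Nek7 (0.88) and Adamts15 (0.87). Vip was most like the serotonin receptor gene Htr3a (0.86), Sall1 (0.85) and Npy2r (0.81). Tac2 was most like Htr3a (0.89), Nr2f2 (0.85) and Npas1 (0.85), and Crh like Tac2 (0.84), Shisa8 (0.80) and Npas1 (0.77). Cck, the gene shared with excitatory neurons, was most like the potassium channel gene Kcnq5 (0.88), Ajap1 (0.77) and Hspa2 (0.76). Among the peptides themselves r was 0.84 for Crh and Tac2, 0.73 for Vip and Tac2 and 0.66 for Vip and Crh, and -0.37 for Cck and Tac1.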

How the data were processed

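Single-cell RNA was measured with 10x Genomics 3′ V2 chemistry, and the authors deposited 1 table per library of whole-number UMI counts per gene and cell, not normalized. The submitters' processing notes name Cell Ranger 3.0.2, Seurat and mm10 without giving the role of each. The peptide genes and all gene lists were chosen with earlier results of these data known.

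From the counts, doublets were scored with Scrublet, and 1064 were removed after the clustering into classes. In PFC DTA replicate 3 the top 295 scores were removed because its automatic threshold removed 0. Cells were clustered with scanpy 1.11.5 (2000 variable genes, 30 components, Leiden resolution 1.0) without the 5 peptide genes and named from marker lists. The naming thresholds were set after the clusters were seen, so subclass names are rebuilt, and 80 cells of sub-clusters with markers of several classes were left out. An Sst/Chodl marker set was not used. CPM is the gene's share of the UMIs of the cell group in a library, scaled to a total of 1e6.

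Counts summed per library were tested with edgeR 4.0.16 (quasi-likelihood test, robust, TMM, filterByExpr at 10 counts, Benjamini-Hochberg adjustment over all genes, threshold 0.05). The PFC genotype fit used the 5 PFC libraries. The area fit used all 7 with genotype as a covariate. Subclasses were fitted where every library of the comparison had at least 20 cells, which left out Cnr1/Sncg interneurons and, between areas, layer 5 extratelencephalic cells. Shares and co-detection used exact permutation tests. The count test was tested on simulated data. Named genes are the 5 peptides, the called members of each list or else its 2 smallest p-values, and the 3 genes most like each peptide. Alternatives were RLE factors, DESeq2 1.42.0, no filter, a non-robust fit, other resolutions, peptides kept in the clustering, doublets or mixed cells kept, other depths, a replicate block, and leaving out each library.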

Additional observations from a re-analysis of the deposited data

How the results depend on the processing

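Of the alternatives that keep every library, 4 moved a count of genes: without the filter on low counts 20 genes passed between PFC genotypes in inhibitory neurons (0 with it) and 526 between areas (270 with it), and with the replicate block 34 passed between PFC genotypes in inhibitory neurons and 89 summed over subclasses (2 without it). Same-numbered libraries deviated together with correlations of 0.068 and 0.030 in inhibitory and 0.0999 and 0.0966 in excitatory neurons. With 2 CTRL libraries the crossed correlations are the same values with the sign turned, so this check cannot decide whether the numbers pair the libraries. The main fits do not use the block. With the replicate block Vip was -0.27 and Tac2 -0.016 in PFC inhibitory neurons. The block changed no call of a peptide listed here. The sign also turned for Cck and Crh in co-detection at 1000 UMIs (3.61 points), for Vip and Cck without thinning (-3.34) and at 2 or more UMIs (-6.30), and for Crh between areas in inhibitory neurons without the filter (0.0060) and at resolutions of 0.5 (0.00057) and 2.0 (0.0010), values close to 0. The causes were not tested.

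Leaving out 1 library gave 0 to 17 genes between PFC genotypes in inhibitory neurons (17 without PFC CTRL replicate 1) and 0 to 9 in excitatory neurons (9 without the same library). Summed over PFC subclasses it gave 3 to 103 (103 without PFC CTRL replicate 1, 65 without PFC DTA replicate 2, 29 without PFC CTRL replicate 2). Between areas it gave 19 to 453 genes in inhibitory neurons (19 without MC DTA, 38 without MC CTRL, 162 without PFC CTRL replicate 2, 453 without PFC DTA replicate 2), 92 to 875 in excitatory neurons (92 without MC CTRL, 99 without MC DTA) and 375 to 2524 over subclasses, against 1965 (375 without MC DTA, 390 without MC CTRL). For co-detection the pairs that passed ran from 0 to 0, and the lowest adjusted exact p with 6 libraries was 0.0625. The test cannot give as small a p with 6 libraries as with 7, so this count cannot show whether a pair depends on 1 library. In inhibitory neurons the differences ranged from 46.3 to 50.8 points for Vip and Tac2, 38.8 to 45.8 for Crh and Tac2 and 40.3 to 46.0 for Vip and Crh. With Tac1 they ranged from -19.1 to -17.1 points for Vip, -19.4 to -18.3 for Crh and -19.9 to -18.0 for Tac2. Log2 fold changes that turned sign ranged, in PFC inhibitory neurons, from -0.22 to 0.27 for Vip, -0.081 to 0.84 for Crh, -0.046 to 0.18 for Tac2 and -0.19 to 0.48 for Tac1, and from -0.0059 to 0.25 for Cck in excitatory neurons. In PFC Calb2/Htr3a interneurons they ranged from -0.62 to 1.42 for Cck, -0.051 to 0.56 for Crh and -0.36 to 0.31 for Tac2. Between areas they ranged from -0.24 to 0.23 for Crh in inhibitory, -0.12 to 0.036 for Cck in excitatory neurons and -0.25 to 0.38 for Tac2 in Calb2/Htr3a interneurons. The Cck and Crh co-detection ranged from -1.20 to 0.64 points. The MC has 2 libraries, and a library held as few as 24 Calb2/Htr3a cells.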
